A study of Homo sapiens with 6 samples.

Results

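The genes described here encode the enzymes, carriers and regulators of fatty acid oxidation in mitochondria and peroxisomes. They were chosen by name as a list of 33 genes, and a gene was kept when it had at least 10 counts in 3 or more of the 6 libraries. This held for 32 of the 33 genes, out of 62754 genes in the count table and 19874 genes tested, and CPT1C was the gene that missed it. All 6 libraries came from HK-2, an immortalized human proximal tubular epithelial cell line, and every sample received Cisplatin, a platinum drug that damages DNA and injures the renal tubule. The methods of the study select 20 μM Cisplatin for 24 hours for its experiments in these cells. In the CP+siNC group the cells were transfected with negative control siRNA, and in the CP+siNAT10 group with siRNA against NAT10, an RNA acetyltransferase, with 3 libraries in each. No library of cells without Cisplatin was analysed here, so each difference is between siRNAs in treated cells of a single line. The labels number the samples as cells of the group and do not say that they were separate cultures, so the p-values measure only the spread between these samples, which may be technical.

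Fatty acids are activated to acyl-CoA at cell membranes, carried into mitochondria as carnitine esters and shortened there by repeated cycles of dehydrogenation, hydration, a second oxidation and thiolysis. Very long and branched chains are first shortened in peroxisomes, which use related enzymes of their own. The proximal tubule reabsorbs solutes at a high energy cost and relies strongly on this pathway, which PPAR receptors, the coactivator PGC-1α and estrogen-related receptors regulate at the level of transcription.

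Total counts were 19321665, 21602988 and 19464027 in the CP+siNC libraries and 20793709, 21531774 and 25192736 in the CP+siNAT10 libraries. Levels are given as CPM, a gene's counts divided by the library size after TMM scaling. NAT10, the target of the siRNA, was at 75.8, 71.4 and 73.2 CPM with control siRNA and at 41.3, 40.5 and 42.4 CPM with NAT10 siRNA. Every CP+siNAT10 library was below every CP+siNC library, as the labels state. The fall was to 56.4% of the control mean, a log2 fold change of -0.82 (SE 0.0426, adjusted p = 2.79e-15 by the quasi-likelihood test of edgeR, adjusted by the Benjamini-Hochberg method, the source of every adjusted p given).

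The cells were compared with markers of the tissue they are named for. CDH6 (45.4 ± 2.04 CPM, SD, n = 3, with control siRNA), GGT1 (33.2 ± 0.177 CPM), PAX8 (31.4 ± 1.34 CPM) and SLC5A2 (9.30 ± 0.864 CPM) were measured, as were the epithelial keratins, led by KRT8 at 1455 CPM. The summed epithelial list was lower with NAT10 siRNA, at 2025 ± 26.7 against 1930 ± 17.3 CPM. KRT18, a keratin, and CLDN1, a tight junction protein, fell (log2 fold change -0.36, adjusted p = 3.79e-10, and -1.10, adjusted p = 1.67e-14, past both limits), EPCAM, an adhesion protein, rose (0.31, adjusted p = 9.02e-04), KRT8 and KRT19 did not pass the test, and CDH1, the epithelial cadherin, was near 0. The defining transporters and regulators of the mature proximal tubule LRP2, CUBN, SLC34A1, SLC22A6, SLC22A8, ANPEP and HNF4A had means of at most 0.220 CPM with control siRNA, and SLC22A6 had no count in any library. The summed proximal tubule list, in which CDH6 took the most counts, was at 131, 139 and 133 CPM with control siRNA and at 155, 167 and 162 CPM with NAT10 siRNA. Endothelial markers summed to at most 0.514 CPM and fat cell markers to at most 0.237 CPM in any library. The fibroblast list was nearly all COL1A1 (10.5 ± 0.536 and 13.7 ± 1.53 CPM), with COL1A2, PDGFRA and DCN near 0. The leukocyte list was nearly all CD68, a lysosomal protein also made outside leukocytes, at 207 ± 9.25 and 272 ± 12.7 CPM, while CD3E and LYZ were near 0. PTPRC, the general leukocyte marker, held 7 to 29 counts a library and was at 0.418 ± 0.0521 and 0.824 ± 0.446 CPM (log2 fold change 0.96, adjusted p = 0.0411), a call lost with DESeq2, with limma voom and without any CP+siNC library or CP+siNAT10 replicate 2 (adjusted p up to 0.404). The part of these differences in the results was not tested. In bulk RNA, fewer cells that express a gene and less RNA per cell cannot be told apart.

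Of the 32 members tested, 17 passed the test at an adjusted p under 0.05, with 9 higher and 8 lower with NAT10 siRNA. Among all tested genes 44.1% passed, 21.8% higher and 22.3% lower, so the members' count is near that of genes in general. Of the 25 members with a mean of at least 10 CPM, 13 passed, against 61.7% of all genes at such a level. No member was past both limits, the p threshold and a log2 fold change beyond 1 in either direction, against 2.33% of tested genes. The groups did not overlap for 20 members, 10 with every CP+siNAT10 library above and 10 with every one below, and this was so for 51.4% of tested genes. The median log2 fold change was 0.016 over the members and 0.0070 over all tested genes. Summed over the list, the members took 1291, 1293 and 1296 CPM with control siRNA and 1279, 1287 and 1256 CPM with NAT10 siRNA. The summed level with NAT10 siRNA was thus 98.5% of control, and rises and falls were found side by side within most steps of the pathway, as the plot by role shows. All 17 called members kept their direction under each other scaling, filter, tool and left-out library that tested them, while 6 lost their call in some of these settings. With the Wald test of DESeq2 this held for ETFA, EHHADH, HSD17B4, PPARA and PPARD, with no filter on low counts for EHHADH, HSD17B4 and PPARD, and with library size scaling alone for ACADVL and HSD17B4.

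**Figure D1:**
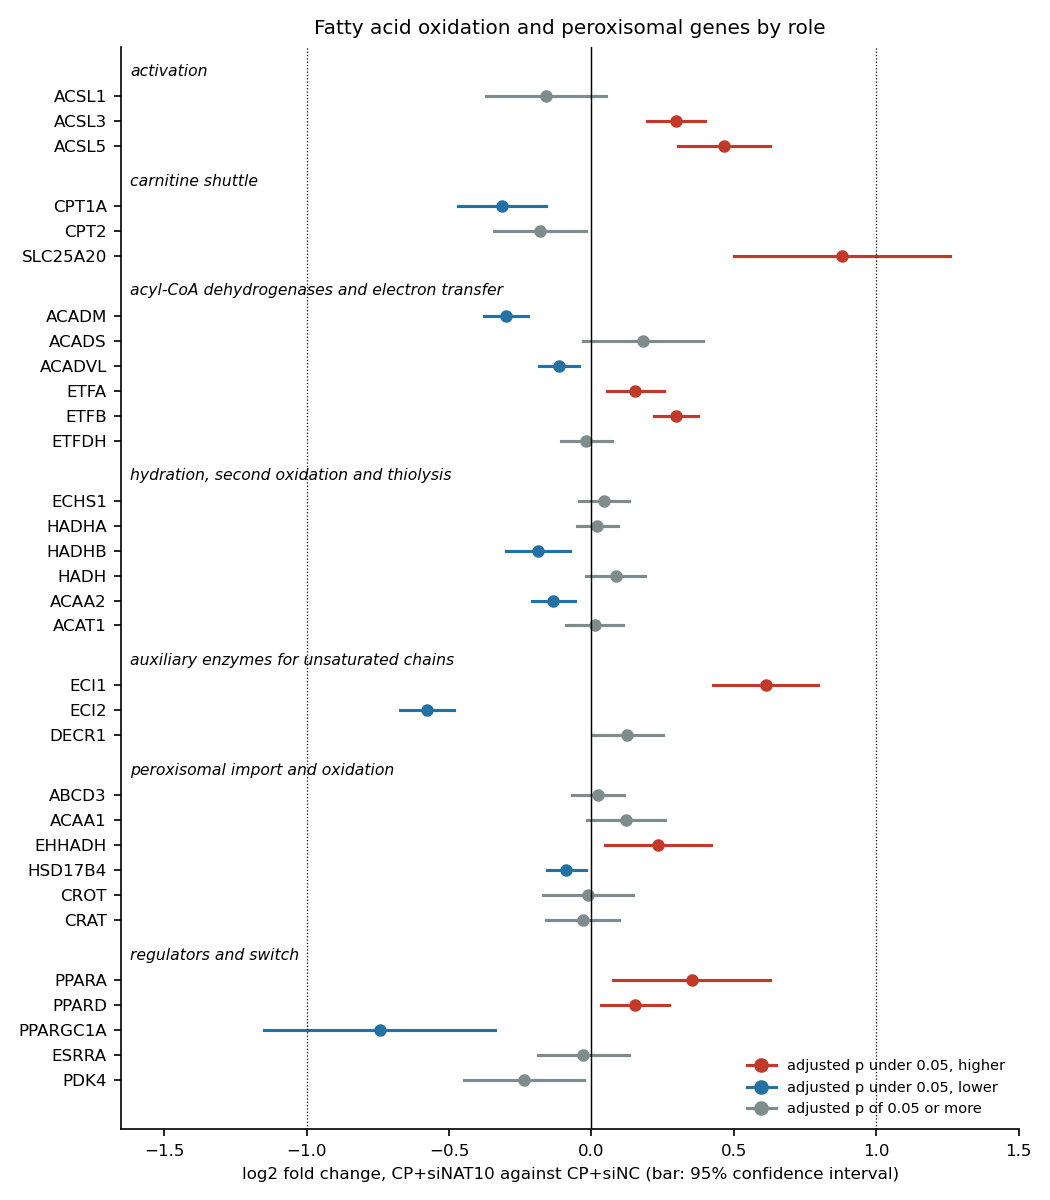
Log2 fold change of CP+siNAT10 against CP+siNC (x axis) for the 32 tested members, grouped by role, with 95% confidence intervals as bars and dotted lines at 1 in size. Members ranged from -0.74 (PPARGC1A) to 0.88 (SLC25A20), 9 higher, 8 lower and 15 with an adjusted p of 0.05 or more.

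Levels can be compared between genes only per length, as RPKM (CPM per 1000 bases of exon). The deposited length joins all annotated exons of a gene, so a gene with long rare exons gets a lower RPKM. With control siRNA the most abundant members were ECHS1 (49.8 ± 1.22 RPKM), ACADVL (41.2 ± 1.06 RPKM), HADHA (28.2 ± 0.456 RPKM), ACAA2 (18.0 ± 0.351 RPKM) and ETFB (11.4 ± 0.252 RPKM). These encode enzymes of the mitochondrial spiral and an electron carrier. The least abundant were CPT1C (0.0318 RPKM), PPARGC1A (0.223 RPKM) and PPARA (0.274 RPKM), a brain-type carnitine acyltransferase and a pair of regulators.

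Long chain acyl-CoA synthetases couple fatty acids to coenzyme A and so start every route of their use. ACSL5, found at mitochondria and the endoplasmic reticulum, was at 11.2, 13.1 and 12 CPM with control siRNA and at 18.4, 16.6 and 15.5 CPM with NAT10 siRNA. ACSL3, which supplies acyl-CoA at lipid droplets, was at 35.6, 37.9 and 35.8 CPM and at 45.3, 46.8 and 42.4 CPM. Both were higher in all CP+siNAT10 libraries than in any CP+siNC library. The log2 fold changes were 0.46 (SE 0.0787, adjusted p = 1.66e-05) for ACSL5 and 0.30 (SE 0.0493, adjusted p = 1.27e-05) for ACSL3. ACSL1, the synthetase most tied to oxidation in heart and fat, was at 8.23, 6.91 and 7.58 CPM against 6.93, 7.27 and 6.15 CPM, and its groups overlapped (log2 fold change -0.16, adjusted p = 0.221). ACSL5 lies over ZDHHC6 on the opposite strand, and because the use of strand in counting is not given in the sources used here, reads of such overlapping genes could have been shared. The spans of 16 members overlap another tested gene, among them HADHA and HADHB with each other, ETFDH, DECR1 and CRAT on opposite strands, and ACADM, ACAA2 and ETFB on the same strand, so their values are less certain.

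In the carnitine shuttle, the outer membrane enzyme and the inner membrane carrier moved in opposite directions. CPT1A makes acylcarnitine and is the rate-limiting entry step of mitochondrial oxidation. Its level was 15.4, 14.7 and 15.5 CPM with control siRNA and 11, 12.8 and 12.8 CPM with NAT10 siRNA. All 3 CP+siNAT10 libraries lay below the control libraries, with a log2 fold change of -0.31 (SE 0.0755, adjusted p = 0.00115). SLC25A20, on chromosome 3, exchanges acylcarnitine for free carnitine across the inner membrane. It had 24, 28 and 35 counts with control siRNA and 55, 59 and 70 counts with NAT10 siRNA, or 1.27, 1.31 and 1.82 CPM against 2.61, 2.70 and 2.76 CPM. The groups were separate, with CP+siNC replicate 3 the highest control library. SLC25A20 had the largest rise among the members, a log2 fold change of 0.88 (95% confidence interval 0.50 to 1.26, adjusted p = 0.000263), and without CP+siNC replicate 3 the value was 1.05, the only case in which a member passed both limits. CPT2, which turns acylcarnitine back to acyl-CoA in the matrix, was at 14.3, 13.6 and 12.8 CPM against 10.9, 12.3 and 12.7 CPM. All libraries with NAT10 siRNA were lower, but CPT2 did not pass the test (log2 fold change -0.18, adjusted p = 0.0644). It passed without CP+siNC replicate 3 (adjusted p = 0.0417) or without CP+siNAT10 replicate 3 (adjusted p = 0.0433). CPT1C had 3 to 7 counts in each library and was not tested.

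**Figure D2:**
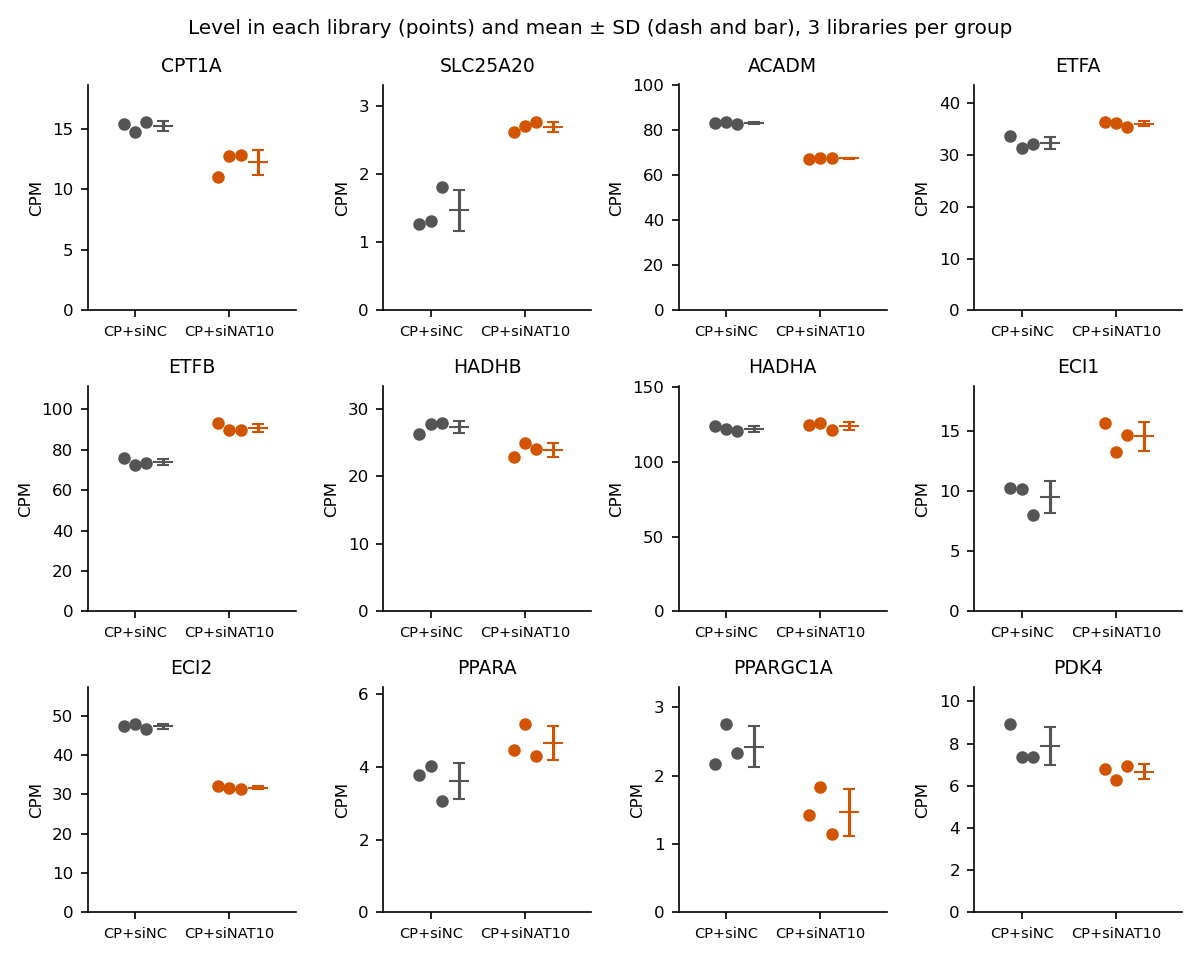
Level in CPM (y axis, from 0) of 12 members in each library (points), with the mean ± SD of the 3 libraries of a group. ACADM, ECI2, ETFB and SLC25A20 show separate groups, and the groups of HADHA overlap.

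Acyl-CoA dehydrogenases carry out the first oxidation and pass electrons to the transfer flavoprotein made of ETFA and ETFB, from which ETFDH hands them to the respiratory chain. ACADM, the medium chain enzyme, was at 83.4, 83.7 and 83.0 CPM with control siRNA and at 67.4, 67.8 and 67.7 CPM with NAT10 siRNA. Libraries of a group differed little and the groups were far apart relative to that spread (log2 fold change -0.30, SE 0.0374, adjusted p = 1.26e-07). ACADVL, the very long chain enzyme of the inner membrane, was at 195, 196 and 204 CPM against 187, 185 and 178 CPM. Its difference was small and separate between groups (log2 fold change -0.11, adjusted p = 0.00780), and the call was lost without CP+siNC replicate 3 (adjusted p = 0.0520), without CP+siNAT10 replicate 3 (adjusted p = 0.0632) and with library size scaling alone (adjusted p = 0.0776). ACADS, the short chain enzyme, had overlapping groups (log2 fold change 0.18, adjusted p = 0.161).

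Both subunits of the transfer flavoprotein rose. ETFB was at 75.8, 72.6 and 73.6 CPM with control siRNA and at 93.1, 89.7 and 89.6 CPM with NAT10 siRNA. ETFA was at 33.6, 31.4 and 32.0 CPM and at 36.3, 36.2 and 35.4 CPM. Each subunit was higher in all CP+siNAT10 libraries, by a log2 fold change of 0.30 (SE 0.0379, adjusted p = 2.17e-07) for ETFB and 0.15 (SE 0.0487, adjusted p = 0.0112) for ETFA. The ETFA call was lost without CP+siNC replicate 2 (adjusted p = 0.0713). ETFDH, the membrane acceptor of their electrons, was at 44.5, 45.5 and 46.2 CPM against 45.4, 44.6 and 44.7 CPM, with overlapping groups and a 95% confidence interval of -0.11 to 0.07 on the log2 scale.

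Within the later steps of the mitochondrial cycle, HADHA and HADHB encode the α and β subunits of the trifunctional protein, which hydrates, oxidizes and cleaves long chains as a single complex. HADHB, the thiolase subunit, was at 26.2, 27.7 and 27.9 CPM with control siRNA and at 22.9, 24.9 and 24.1 CPM with NAT10 siRNA. It was lower in all 3 libraries with NAT10 siRNA (log2 fold change -0.19, SE 0.0552, adjusted p = 0.00644). HADHA was at 124, 122 and 121 CPM against 125, 126 and 121 CPM, with overlapping groups and a 95% confidence interval of -0.05 to 0.09. ACAA2, the matrix thiolase for medium chains, was at 88.2, 87.5 and 90.8 CPM against 81.2, 80.6 and 81.1 CPM and fell by 0.13 on the log2 scale (adjusted p = 0.00390). For ECHS1, the short chain hydratase, HADH, the short chain dehydrogenase, and ACAT1, the acetoacetyl-CoA thiolase, groups overlapped and log2 fold changes were 0.04, 0.08 and 0.01.

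HADHA and HADHB lie head to head on chromosome 2, and the RefSeq promoter windows of the pair, each from 250 bases before to 50 after a start, share 194 bases. The HADHB window, chr2:26244689-26244988 on the plus strand of GRCh38.p14, is printed because it spans much of the sequence from which the subunit that fell and the one that did not pass the test are both transcribed. The SLC25A20 window, chr3:48898833-48899132 on the minus strand, belongs to the member with the largest rise. Capitals mark GC boxes (GGGCGG or its reverse complement), of which the HADHB window holds 2 and the SLC25A20 window 3.
HADHB: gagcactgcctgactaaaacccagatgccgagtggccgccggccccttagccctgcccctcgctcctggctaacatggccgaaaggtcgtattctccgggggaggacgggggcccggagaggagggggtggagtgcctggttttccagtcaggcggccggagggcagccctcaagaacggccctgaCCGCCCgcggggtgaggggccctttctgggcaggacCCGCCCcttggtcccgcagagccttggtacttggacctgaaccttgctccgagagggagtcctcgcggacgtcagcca
SLC25A20: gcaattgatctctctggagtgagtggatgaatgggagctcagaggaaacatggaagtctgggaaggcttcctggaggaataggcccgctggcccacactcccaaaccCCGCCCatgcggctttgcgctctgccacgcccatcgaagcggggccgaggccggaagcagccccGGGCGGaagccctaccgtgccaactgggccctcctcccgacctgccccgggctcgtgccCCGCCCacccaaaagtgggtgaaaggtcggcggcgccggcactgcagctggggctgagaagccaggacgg

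Promoter windows of 300 bases were found for 28 of the 33 members, 42 windows in all because some genes have several starts. These were searched on both strands for 6 patterns of letters. The hexamer AGGTCA, to which many nuclear receptors bind, was in 1 of the 42 windows and in 13.8% of all 35116 windows of the table. The member with this match was ACSL5, at chr10:112375018-112375317 on the plus strand, where capitals mark the hexamer.
ACSL5: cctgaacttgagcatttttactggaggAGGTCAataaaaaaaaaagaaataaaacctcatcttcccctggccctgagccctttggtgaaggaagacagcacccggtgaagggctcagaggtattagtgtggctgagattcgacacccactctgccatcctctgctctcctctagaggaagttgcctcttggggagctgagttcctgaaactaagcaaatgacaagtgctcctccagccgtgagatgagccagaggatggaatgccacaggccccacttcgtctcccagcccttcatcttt
TCAAGGTCA, which contains AGGTCA and is the element of estrogen-related receptors, was in 0 of the members' windows and in 0.353% of all windows. The PPAR element, 2 copies of AGGTCA spaced by 1 base, was in 0 and in 0.0228%. At such rates 0 matches are likely in any 42 windows, so both counts cannot tell the members from other genes. Sites outside the windows were not searched. The E-box CACGTG was in 1 window, of PPARGC1A, and in 7.26% of all windows. CCAAT was in 26.2% of the members' windows and in 34.6% of all, and the GC box in 71.4% and in 45.0%. A match describes the letters of these windows only, and the windows of all genes include non-coding genes.

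Unsaturated chains need auxiliary enzymes that move or remove double bonds, and here 2 enzymes of like function went opposite ways. ECI1, the mitochondrial enoyl-CoA isomerase, on chromosome 16, was at 10.3, 10.2 and 8.0 CPM with control siRNA and at 15.7, 13.3 and 14.7 CPM with NAT10 siRNA. ECI2, an isomerase of peroxisomes and mitochondria, on chromosome 6, was at 47.5, 47.9 and 46.5 CPM and at 32.1, 31.7 and 31.3 CPM. No library of one group reached the range of the other for either gene. The log2 fold changes were 0.61 (SE 0.0900, adjusted p = 2.01e-06) for ECI1 and -0.58 (SE 0.0459, adjusted p = 2.58e-11) for ECI2. DECR1, the dienoyl-CoA reductase, was at 29.8, 24.7 and 27.5 CPM against 28.5, 31.6 and 29.2 CPM, and its groups overlapped (log2 fold change 0.13, adjusted p = 0.0926). It passed without CP+siNC replicate 1 (adjusted p = 0.0243) and with library size scaling alone (adjusted p = 0.0300).

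The ratio of the counts of partner genes within a library does not depend on how library sizes are scaled. These pairs were chosen after their values were seen, so their ratios are a description. ECI2 had 4.61, 4.68 and 5.82 counts for each count of ECI1 with control siRNA and 2.05, 2.38 and 2.13 with NAT10 siRNA. CPT1A had 12.1, 11.2 and 8.54 counts for each count of SLC25A20, against 4.22, 4.73 and 4.64. With NAT10 siRNA these ratios were 43.4% and 42.6% of the control means, and their groups did not overlap. For HADHB over HADHA the ratios were 0.211, 0.228 and 0.231 against 0.183, 0.198 and 0.199, and for ETFDH over ETFB 0.587, 0.627 and 0.628 against 0.487, 0.497 and 0.498. These ratios were 86.5% and 80.5% of the control means, again with separate groups.

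**Figure D3:**
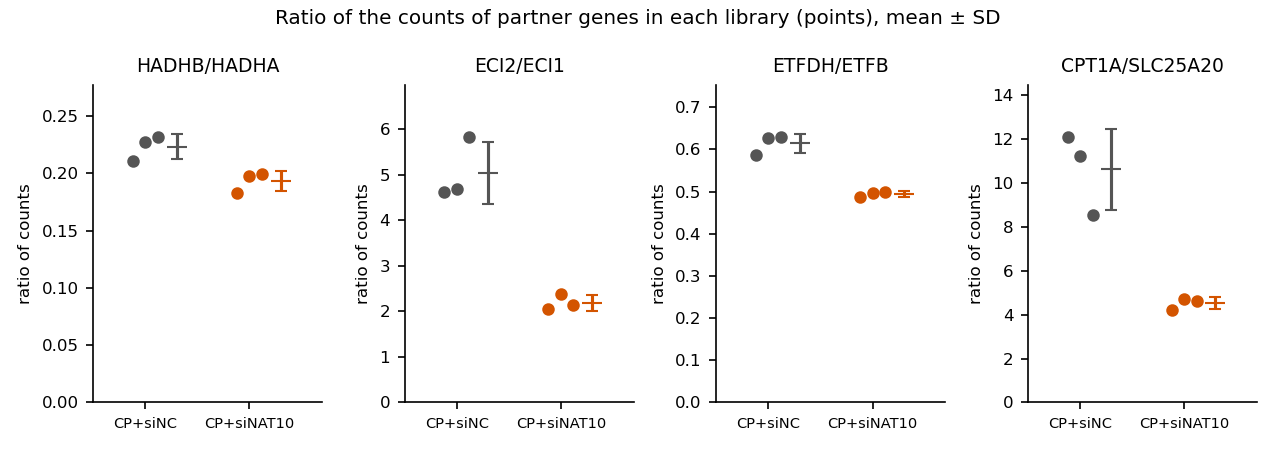
Ratio of raw counts (y axis, from 0) of 4 pairs of partner genes in each library (points), with the mean ± SD of 3 libraries. In every pair the CP+siNAT10 points are lower than the CP+siNC points, and ECI2/ECI1 went from a mean of 5.04 to 2.19.

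In peroxisomes, ABCD3 imports long and branched acyl groups, EHHADH and HSD17B4 are bifunctional enzymes, and ACAA1 is the thiolase. CROT and CRAT make carnitine esters for export. EHHADH was at 7.70, 8.46 and 7.37 CPM with control siRNA and at 8.88, 9.29 and 9.51 CPM with NAT10 siRNA. HSD17B4 was at 156, 157 and 157 CPM against 146, 149 and 147 CPM. EHHADH was higher and HSD17B4 lower in all libraries with NAT10 siRNA, and both differences were small. The log2 fold changes were 0.23 (SE 0.0911, adjusted p = 0.0386) and -0.09 (SE 0.0328, adjusted p = 0.0304). The EHHADH call was lost without CP+siNC replicate 1 (adjusted p = 0.104), CP+siNC replicate 3 (0.154), CP+siNAT10 replicate 2 (0.0769) or CP+siNAT10 replicate 3 (0.113). The HSD17B4 call was lost without CP+siNC replicate 2 (adjusted p = 0.0540), CP+siNC replicate 3 (0.0651), CP+siNAT10 replicate 1 (0.0866) or CP+siNAT10 replicate 3 (0.0840). ABCD3, CROT and CRAT had overlapping groups and log2 fold changes of 0.02, -0.01 and -0.03, and ACAA1 was above control in all libraries without passing the test (log2 fold change 0.12, adjusted p = 0.151).

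Among the regulators, the coactivator fell while the receptors it works with rose or did not pass the test. PPARGC1A encodes PGC-1α, which drives mitochondrial biogenesis and oxidation, and had 41, 59 and 45 counts with control siRNA and 30, 40 and 29 counts with NAT10 siRNA. These are 2.18, 2.76 and 2.34 CPM against 1.42, 1.83 and 1.14 CPM, with all libraries of the NAT10 siRNA group below control. PPARGC1A had the largest fall of the members, a log2 fold change of -0.74 with a wide 95% confidence interval of -1.15 to -0.34 (adjusted p = 0.00283). PPARA, the receptor that turns on oxidation genes in fasting, was at 3.77, 4.02 and 3.06 CPM and at 4.46, 5.17 and 4.30 CPM, higher in each CP+siNAT10 library (log2 fold change 0.35, SE 0.134, adjusted p = 0.0342). Its call was lost without CP+siNC replicate 1 (adjusted p = 0.0556), CP+siNC replicate 3 (0.191) or CP+siNAT10 replicate 2 (0.156). PPARD, a widely expressed receptor of the family, was at 20.7, 19.9 and 20.8 CPM and at 22.7, 23.2 and 22.3 CPM (log2 fold change 0.15, SE 0.0576, adjusted p = 0.0318), and its call was lost when any library other than CP+siNAT10 replicate 3 was left out (adjusted p up to 0.127). ESRRA, an estrogen-related receptor that acts with PGC-1α, had overlapping groups (log2 fold change -0.03, adjusted p = 0.803). PDK4, a kinase that shuts off pyruvate dehydrogenase when fat is burned, was at 8.92, 7.38 and 7.37 CPM against 6.79, 6.27 and 6.94 CPM, below control in every library but not past the test (log2 fold change -0.24, adjusted p = 0.0611). It passed without CP+siNC replicate 2 (adjusted p = 0.0449) or replicate 3 (adjusted p = 0.0442).

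**Figure D4:**
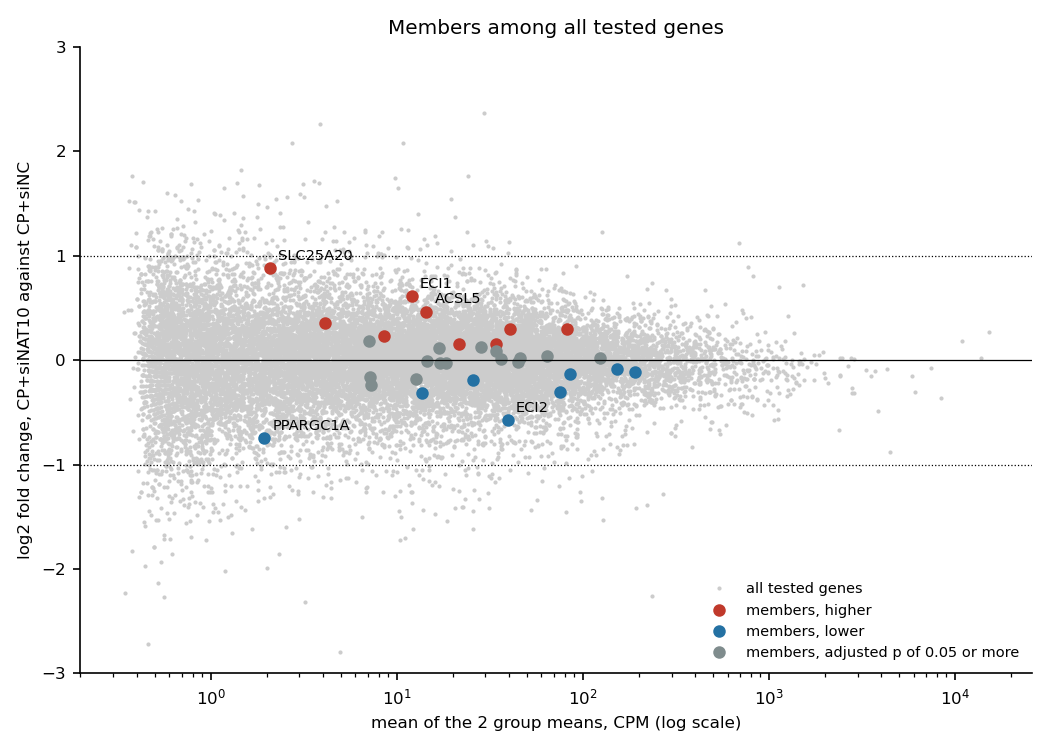
Mean level in CPM (x axis, log scale) against the log2 fold change (y axis) of all 19874 tested genes (grey dots) and of the 32 members (large points). The members lie inside the cloud of all genes, and none is past the dotted lines at 1 in size.

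Sites in 3′ UTRs were also read for the members. A set of 3 heptamers had been picked from these same libraries because genes that carry them were lower with NAT10 siRNA, so they give no independent support. Among the members, GACTATC was found in PPARGC1A, while ACTATCA was found in ETFA, and CATATTC in ACADM, HSD17B4 and PPARA. In the longest 3′ UTR in GENCODE 29, 5 of the 32 tested members (15.6%) carry 1 of them, against 17.3% of tested protein-coding genes. The sites are printed with the heptamer in capitals because they show which of the changed members hold one.
PPARGC1A: gtgtgtctgaaGACTATCtttgaagccag
ACADM: attttgacattCATATTCtcctattttac
HSD17B4: taagaagaatgCATATTCagagttgggag
ETFA: acagctttaaaACTATCAgaaatatgcct
PPARA: gttaattgactCATATTCttaaaagcctg
On GRCh38 they lie at chr4:23794064-23794092 (minus strand) for PPARGC1A, chr1:75763262-75763290 (plus) for ACADM, chr5:119584531-119584559 (plus) for HSD17B4, chr15:76216280-76216308 (minus) for ETFA and chr22:46242629-46242657 (plus) for PPARA. PPARGC1A, ACADM and HSD17B4 fell, whereas ETFA and PPARA rose. Among the 27 members with no such heptamer, 7 rose and 5 fell, so most of the changed members, including CPT1A, SLC25A20, ECI1 and ECI2, carry none. Of 2263 tested protein-coding genes with a heptamer, 447 rose and 915 fell. Of 10817 tested protein-coding genes without one, 3152 rose and 2519 fell. The part of the members' sites in the falls was not tested.

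Other genes of the pathway were read from lists. For the counts of each list, the share over all tested genes was 21.8% higher and 22.3% lower. Of 15 tested genes for peroxisome biogenesis, 2 rose and 3 fell (median log2 fold change -0.02). PEX6, an ATPase that recycles the import receptor, rose from 13.0 ± 0.940 to 16.9 ± 0.662 CPM (log2 fold change 0.38, adjusted p = 7.56e-05). PEX19, which acts in membrane protein import, fell by 0.27 on the log2 scale, and PEX10, a ubiquitin ligase of import, rose by 0.23. Of 26 other peroxisomal enzymes and transporters, 8 rose and 6 fell (median -0.01). CAT, the catalase that removes the hydrogen peroxide made by peroxisomal oxidation, was at 7.22, 6.54 and 6.18 CPM with control siRNA and at 9.83, 9.33 and 11.3 CPM with NAT10 siRNA. CAT was thus higher in every CP+siNAT10 library, with a log2 fold change of 0.62 (adjusted p = 7.19e-06). FAR1, the fatty acyl-CoA reductase of ether lipid synthesis, rose (0.27), and ACBD5, a tether to the endoplasmic reticulum, TYSND1, a processing protease, and BAAT, an acyltransferase, fell (-0.42, -0.52 and -0.89).

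Of 25 other mitochondrial genes of fatty acid oxidation, 7 rose and 4 fell (median 0.09). ACAD10, an acyl-CoA dehydrogenase relative, was at 1.81, 2.24 and 1.87 CPM with control siRNA and at 4.56, 4.30 and 4.50 CPM with NAT10 siRNA. Every library with NAT10 siRNA was above every control library, and ACAD10 was the only gene on the pathway lists past both limits (log2 fold change 1.17, SE 0.148, adjusted p = 1.94e-07). MLYCD, which breaks down malonyl-CoA, the inhibitor of CPT1A, rose (0.57), as did MMUT, the methylmalonyl-CoA mutase (0.55). ACADSB, which oxidizes branched short chains, and ETFRF1, a regulator of the transfer flavoprotein, fell (-0.59 and -0.50). The list of PPAR target genes, which shares PDK4, CPT1A, SLC25A20, ACADVL and HADHA with the members, had 2 rises and 5 falls among 13 tested genes. Its median log2 fold change was 0.02, with 7 genes above 0 and 6 below. PLIN2, a lipid droplet coat protein, fell from 84.7 ± 3.11 to 70.4 ± 1.75 CPM (-0.27, adjusted p = 2.42e-06) and ANGPTL4, a lipase inhibitor, fell by 0.28 on the log2 scale, while CREB3L3, a transcription factor, rose from 7.76 ± 0.393 to 14.1 ± 1.02 CPM (0.86, adjusted p = 2.52e-09). FABP1, FABP4, CD36, FGF21, CYP4A11 and UCP3 were below the filter.

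Genes of fatty acid uptake and lipid droplets were lower in sum, at 714, 715 and 711 CPM with control siRNA and 637, 634 and 634 CPM with NAT10 siRNA, with 2 rises and 6 falls among 20 tested genes (median -0.16). These 8 calls are near the share of all tested genes, 44.1%. G0S2, an inhibitor of the lipase ATGL, was the most abundant and fell from 190.1 ± 2.75 to 143 ± 5.55 CPM (-0.41, adjusted p = 9.35e-11). MGLL, the monoglyceride lipase, ABHD5, the activator of ATGL, and FABP5, a fatty acid binding protein, also fell (-0.71, -0.27 and -0.25). FABP5 went from 114 ± 2.92 to 96.4 ± 5.54 CPM. The falls of G0S2, FABP5 and PLIN2 in CPM were together about as large as that of the sum. Of 18 nuclear receptors, coactivators and energy sensors, 10 rose and 4 fell (median 0.23). PPARG, the third receptor of the PPAR family, was at 6.96, 9.29 and 6.91 CPM with control siRNA and at 12.9, 13.6 and 12.6 CPM with NAT10 siRNA. All its CP+siNAT10 libraries were higher (log2 fold change 0.74, adjusted p = 2.56e-07). The corepressor NRIP1 rose by 0.26. TFAM, which packages and transcribes mitochondrial DNA, was at 148, 142 and 145 CPM against 74.9, 77.7 and 78.7 CPM. No TFAM value of one group came near the other (log2 fold change -0.91, adjusted p = 1.19e-17). PDK2, a kinase of pyruvate dehydrogenase like PDK4, fell from 17.4 ± 0.960 to 11.5 ± 0.817 CPM (-0.60, adjusted p = 1.05e-07). Of the other such kinases on the list, PDK3 fell (-0.38, adjusted p = 9.57e-05) and PDK1 rose (0.31, adjusted p = 0.00939), a call lost with DESeq2 (adjusted p = 0.0667). The mitochondrial genome gave 8.22% to 8.52% of the counts of CP+siNC libraries and 8.0% to 8.66% of those of CP+siNAT10 libraries, ranges that overlap.

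Ketone body genes were at a summed 134, 132 and 131 CPM with control siRNA and 148, 148 and 147 CPM with NAT10 siRNA, and 3 of 5 tested genes rose. BDH2, a cytosolic dehydrogenase, and OXCT1, which activates acetoacetate for use, rose by 0.36 and by 0.17. BDH1, the mitochondrial dehydrogenase, did not pass the test (0.13, adjusted p = 0.0941) except without CP+siNAT10 replicate 3 (adjusted p = 0.0430) and with library size scaling alone (adjusted p = 0.0343), and ACAT1, which is shared with the members, is given above.

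**Figure D5:**
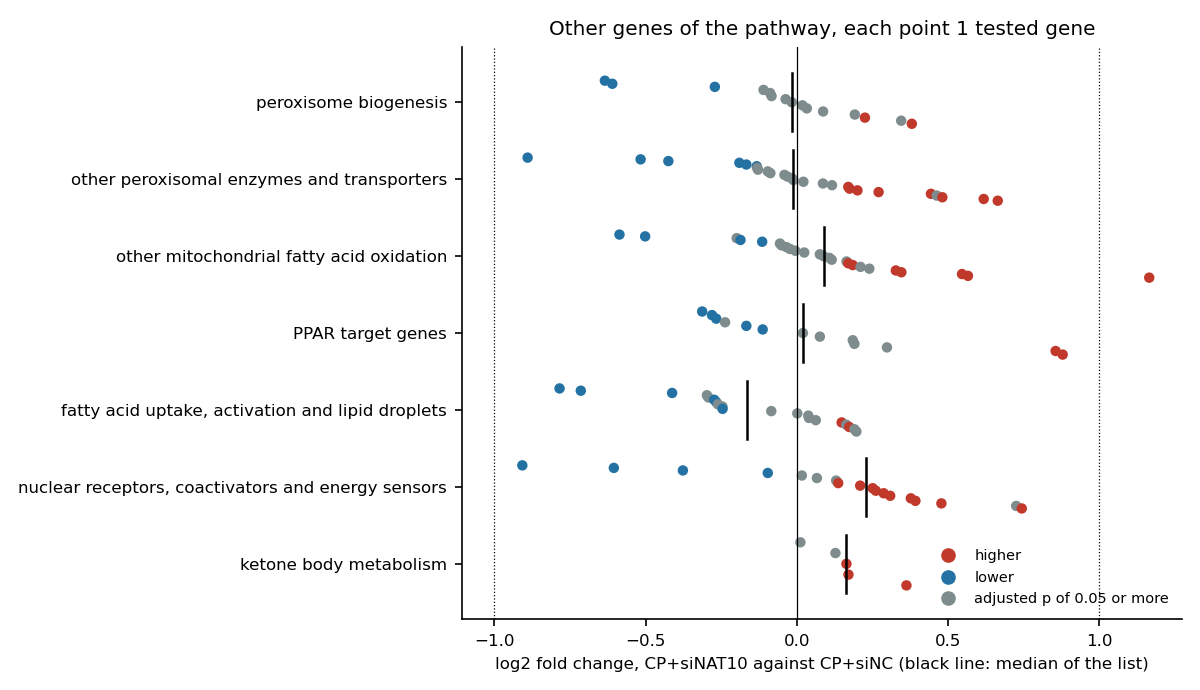
Log2 fold change of CP+siNAT10 against CP+siNC (x axis) of the tested genes of 7 lists of the pathway, 1 point per gene, with the median of each list as a black line and dotted lines at 1 in size. The median was lowest for uptake and lipid droplets (-0.16) and highest for nuclear receptors, coactivators and energy sensors (0.23).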

How the data were processed

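RNA of Cisplatin-treated HK-2 cells was made into stranded mRNA libraries. The authors aligned reads to GRCh38 and deposited raw counts per gene. The submitters' processing notes name Trimmomatic 0.36, STAR 2.5.3a, featureCounts of Subread 1.5.1 and edgeR 3.12.1. The methods of the study state that the library kit adds molecular identifiers, meant to correct for PCR and sequencing duplicates. Whether these were merged in the deposited counts, and whether strand was used in counting, is not given in the sources used here. The kept genes needed the minimum counts of edgeR's filterByExpr (10 per library scale, 15 in total). From these counts, edgeR 4.0.16 in R 4.3.3 scaled library sizes (TMM), and its quasi-likelihood test with Benjamini-Hochberg adjustment was run on all genes together. The standard error was the log2 fold change divided by the square root of F. CPM and RPKM are computed from the deposited counts and lengths. An exact permutation test of 3 against 3 cannot go below p = 0.10, so single genes rest on the model. Alternatives used DESeq2 1.42.0, limma 3.58.1, other scalings and filters, left-out libraries and a replicate block. Named genes were NAT10, the members and, of each context list, up to 5 tested genes with the smallest p, plus any past both limits, and defining markers, some of which are not reported here; the partner ratios, the heptamer sites, the promoter motifs, the genes below the filter, PDK1, PDK3 and the tests of markers were added after their values were seen. Of the members, 16 overlap another tested gene, 14 of them on the opposite strand. Named pseudogenes exist for 6 members and held at most 0.981% of their counts. Members and lists were chosen with earlier results of these data known. The programs were tested on simulated data. Sequences came from RefSeq (GRCh38.p14) and GENCODE 29. Plots used matplotlib 3.10.9 in Python 3.11.15.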

Additional observations from a re-analysis of the deposited data

How the results depend on the processing

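Under 15 other settings, 11 of the 17 called members kept both direction and call wherever they were tested, and all 17 kept direction (the filter at a mean of 10 CPM left out SLC25A20, EHHADH, PPARA and PPARGC1A, which have no value there); the members called numbered 12 to 17. Members higher with NAT10 siRNA fell from 9 to 5 with DESeq2's Wald test. Over all 19874 tested genes, those called fell from 8771 to 6692 in that setting, and those called higher from 4331 to 3253. The cause was not tested. Members past both limits were 0 in all settings except without CP+siNC replicate 3 (range 0 to 1, SLC25A20). Leaving out the members with a 3′ UTR heptamer, a choice made after seeing the data, took the members lower from 8 to 5 because 3 of them carry one. The median log2 fold change of the members was 0.0539 with library size only, 0.0110 with upper quartile scaling, 0.0129 with at least 10 counts in 3 or more libraries, 0.0318 with no filter beyond a count above 0, 0.0108 for genes averaging at least 10 CPM and 0.0130 with DESeq2, against 0.0161; leaving out 1 library at a time gave -0.000593 to 0.0274. Values near 0 of uncalled members changed sign: with library size only, ETFDH was 0.0202, CROT 0.0250, CRAT 0.00608 and ESRRA 0.00900; leaving out 1 library gave ranges of -0.0243 to 0.0411 for ACAT1, -0.0122 to 0.0461 for ABCD3, -0.0870 to 0.0581 for CROT, -0.0735 to 0.00491 for CRAT and -0.13 to 0.0640 for ESRRA, and none of these passed the test. Deviations of same-numbered libraries had correlations of -0.042, 0.011 and -0.143, and those of differently numbered libraries across groups ranged from -0.115 to 0.147. No deviation shared by number was seen. With 3 libraries a group this cannot show whether the samples were paired, which the labels do not state. The replicate block left 17 members called (9 higher, 8 lower), 8526 genes called, NAT10 at -0.83 and the median at 0.0166. Genes of few counts, such as SLC25A20, PPARGC1A and PPARA, had the widest intervals.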
